A study of Mus musculus with 58 samples.

Results

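The sites of endogenous PSPC1 on chromatin of mouse embryonic stem cells were set against the peaks of hnRNPU in the same cell type. A PSPC1 site was a peak of the first knock-in library that shared at least 1 bp with a peak of the second, merged with it, which gave 10352 sites. The hnRNPU list held 10279 peaks. Both come from 9 chromatin immunoprecipitation sequencing (ChIP-seq) peak lists with 156215 peaks in all; 49 of the 58 samples of the series were not analysed here. Of the PSPC1 sites, 2713 shared at least 1 bp with an hnRNPU peak and are called co-bound, and 7639 are called PSPC1-only. Co-bound means only that peaks of separate libraries share a base pair. It does not show that both proteins sat on the same molecule.

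PSPC1 is an RNA-binding protein of the DBHS family, whose members form dimers and build paraspeckles, nuclear bodies assembled on a long noncoding RNA. hnRNPU, also known as scaffold attachment factor A, binds RNA and DNA and is known as a component of the nuclear matrix that takes part in chromatin organisation. UTP6, to which the overlap is compared below, belongs to the small-subunit processome, the particle that matures the precursor of small ribosomal subunit RNA in the nucleolus.

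The libraries differed in more than the protein. Endogenous PSPC1 carried a tag with the FB epitopes and an AID degron at its own gene (AID-FB(KI)-PSPC1) in cells made from the CJ9 line, and its chromatin was fixed with 3% formaldehyde. It had 2 libraries. hnRNPU was overexpressed with an FB tag (FB(OE)-hnRNPU) in J1 cells that carry the biotin ligase BirA. Its chromatin was fixed with 2 mM of the protein crosslinker DSP and 1% formaldehyde, treated with DNase I at 12 U/ml, and purified with streptavidin beads after the FLAG antibody; it had 1 library. UTP6 was overexpressed in the same BirA line, fixed like the knock-in cells, and had 1 library. The other lists were overexpressed PSPC1 (1% formaldehyde), UTP3 and CIRH1A (3% formaldehyde), and SAFB and SAFB2 (fixed like hnRNPU), all in the BirA line with 1 library each. All cells carry the 129/Ola strain label, were kept in medium with LIF and received no treatment. Protein, tag, parental line, expression from the own gene or from a transgene, fixation and DNase I treatment cannot be told apart between PSPC1 and hnRNPU. UTP6 shared line and overexpression with hnRNPU and fixation with endogenous PSPC1, and the part of these in the UTP6 results was not tested. No list from untagged cells was used, so the background of the purification is not known here. The labels do not say whether the knock-in libraries came from separate cultures. Markers of the cell type could not be checked, because peak lists hold no expression values.

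Most regions of each protein did not overlap the other's. An hnRNPU peak was present at 26.2% of PSPC1 sites (2713 of 10352, 95% Wilson interval 25.4 to 27.1%). Seen from the other list, 27% of hnRNPU peaks lay at a PSPC1 site (2772 of 10279, 26.1 to 27.8%), and 7507 are called hnRNPU-only. All intervals given here reflect only the error of counting regions: peaks do not stand for replicates, and the read depth is unknown. Overlap was nearly always a single pair: 2650 co-bound sites held 1 hnRNPU peak, 62 held 2 and 1 held 3, while 3 hnRNPU peaks each met 2 sites. PSPC1 sites covered 30.7 Mb and hnRNPU peaks 10.0 Mb. The 3.12 Mb in both was 31.2% of the hnRNPU length and 10.2% of the PSPC1 length. When each member of a pair had to cover 50% of the other, both shares fell to 10.2% of sites and 10.3% of hnRNPU peaks. A typical hnRNPU peak, with a median of 796 bp, is too short to cover that much of a typical site of 2324.5 bp.

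PSPC1-only sites were mostly far from hnRNPU peaks, and hnRNPU-only peaks from PSPC1 sites, rather than just past the overlap limit. The nearest hnRNPU peak to a PSPC1-only site lay a median of 58.0 kb away (interquartile range 21.7 to 131 kb). Only 71 PSPC1-only sites (0.929%) had one within 1 kb and 948 (12.4%) within 10 kb. For hnRNPU-only peaks, the median distance to a PSPC1 site was 106 kb, and 46 peaks lay within 1 kb. Those distances are to sites found in both knock-in libraries, not to every PSPC1 peak. Of the 7507 hnRNPU-only peaks, 2021 (26.9%) met a PSPC1 peak of a single library.

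The knock-in libraries gave near-equal shares. Of all peaks in library 1, 18.2% had an hnRNPU peak (3361 of 18455), and of all peaks in library 2, 17.9% (4093 of 22926), a mean of 18.0 ± 0.254% (SD, n = 2). Peaks found in both libraries met hnRNPU more often than peaks found in 1 alone: 25.0% against 8.56% in library 1 and 24.5% against 11.6% in library 2. Peaks found in both also scored higher. Within score quartiles of each library the order was the same in all quartiles. In the lowest quartile of library 1 the shares were 17.4% and 6.06%, and in the highest 30.3% and 16.8%. In library 2 they were 15.7% and 7.38% in the lowest quartile and 29.9% and 23.1% in the highest, and the gap was narrowest in the quartile below it, at 22.5% and 17.3%. The requirement for both libraries therefore sets part of the count of hnRNPU-only peaks: 2021 of those 7507 (26.9%) met a PSPC1 peak of a single library. Counting such peaks, 46.6% of all hnRNPU peaks (4793) met PSPC1 in at least 1 library.

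Width separated the hnRNPU peaks more than the PSPC1 sites, by a margin that depended on how a site was defined. Co-bound sites had a median width of 2390 bp (interquartile range 1819 to 3293 bp) and PSPC1-only sites 2302 bp (1712 to 3303 bp), a ratio of 1.04. Their distributions overlapped almost wholly, and the direction of this ratio was not stable. It was 0.975 with a score minimum of 50 in every list, 0.924 with the 6670 highest scoring peaks of each list and 0.856 with the reciprocal overlap. The reciprocal overlap selects narrow sites, because the hnRNPU peak must cover 50% of the site, so its ratio carries no weight here. Against single libraries the ratio was 1.27 to 1.31, and with the intersection of both libraries as the site it was 1.23. The share of sites with hnRNPU was 22.6%, 27.3%, 28.9% and 26.0% from the narrowest to the widest quartile of sites, so it rose and then came down. Counted only in the central 500 bp of each site, so that wide sites offered no more length, it was 22.1%, 26.3%, 26.2% and 17.8%. Among the 213 sites of at least 10 kb, 46 (21.6%, 16.6 to 27.6%) were co-bound, although 78.4% of them held a UTP6 peak.

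On the hnRNPU side the share climbed with each step in width. It was 10.5% in the narrowest quartile of hnRNPU peaks (median 489 bp), then 20.8%, 31.9% and 44.6% in the widest (median 1507 bp). Counting only hnRNPU peaks whose midpoint fell inside a site, the shares were 10.4%, 20.5%, 31.7% and 43.9%. The climb was also present within each score quartile. Among the highest scoring hnRNPU peaks the share was 14.5% in the narrowest and 50.3% in the widest quartile, and among the lowest scoring 8.81% and 33.2%. The median width of hnRNPU peaks at PSPC1 sites was 1052.5 bp against 723 bp for hnRNPU-only peaks.

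**Figure D1:**
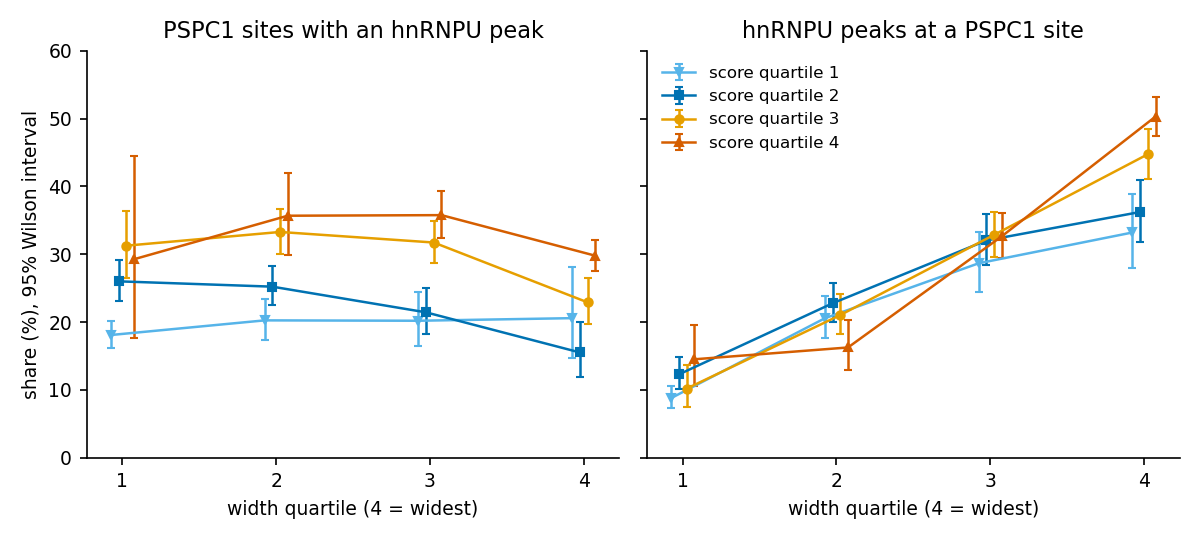
Share of PSPC1 sites with an hnRNPU peak (left) and of hnRNPU peaks at a PSPC1 site (right), in percent, by width quartile, with a line for each score quartile (4 is the highest) and bars for 95% Wilson intervals. On the right every line climbs, from 8.81% to 33.2% in score quartile 1 and from 14.5% to 50.3% in score quartile 4, while on the left no line climbs across all widths.

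High-scoring regions of either list met the other more often. The deposited score has no stated unit, so it was used as a rank within a list; the rank of a site was the mean percentile of its best peak in both knock-in libraries. From the lowest to the highest rank quartile of PSPC1 sites, 19.1%, 23.5%, 30.1% and 32.1% had an hnRNPU peak. The highest minus the lowest was 12.9 percentage points (95% Newcombe interval 10.6 to 15.3). Across deciles the share was 34.6% in the ninth and 31.4% in the tenth, with overlapping intervals. On the hnRNPU side it was 17.6%, 24.1%, 29.5% and 36.6% by quartile, a difference of 18.96 points (16.6 to 21.3), and 39.3% in the tenth decile.

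The PSPC1 gradient depended on how the lists were drawn. It was 20.3 to 20.4 points for the peaks of either knock-in library alone and 4.68 points with windows of 500 bp around the midpoints. It turned to -1.41 points (-4.95 to 2.13) with the 6670 highest scoring peaks of each list, where 4470 sites were left, and to -4.29 points with the reciprocal overlap. The interval of the former includes 0 and that of the latter, -5.82 to -2.77, does not. The reciprocal overlap cannot decide the direction of the gradient, because it selects narrow sites and rank went with width. In the highest rank quartile, 1554 of 2588 sites were in the widest quartile, with a median of 4865.5 bp. In the lowest rank quartile, 1370 of 2588 were in the narrowest, with a median of 1367.5 bp. The value of -4.29 points therefore carries no weight here.

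**Figure D2:**
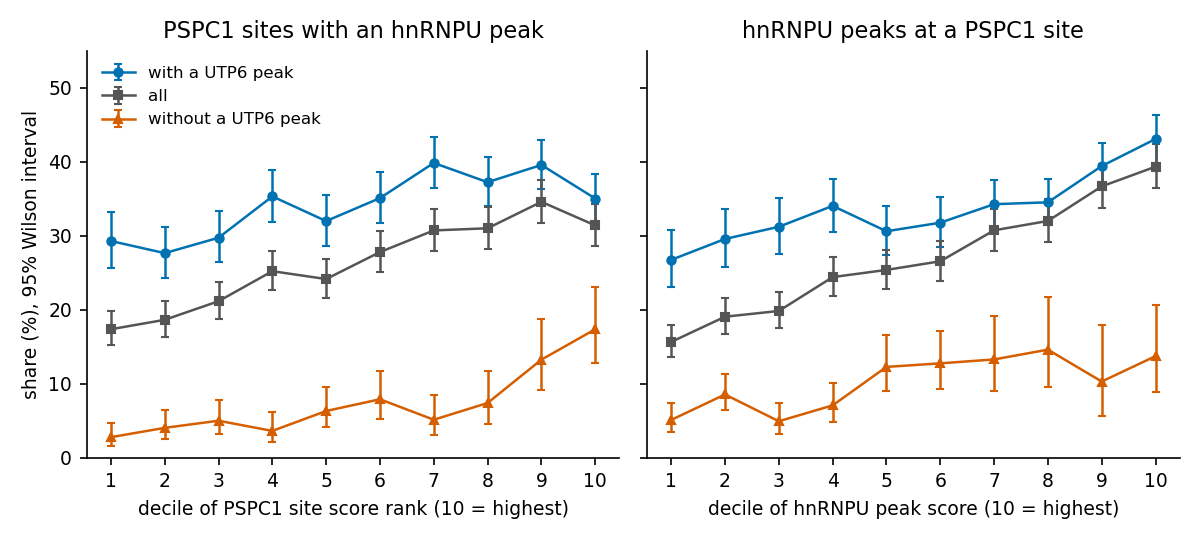
Share of PSPC1 sites with an hnRNPU peak by decile of site rank (left) and of hnRNPU peaks at a PSPC1 site by decile of hnRNPU score (right), for all regions and for those with and without a UTP6 peak, with 95% Wilson intervals. Regions with UTP6 lie above those without in every decile on both sides; on the left the share without UTP6 goes from 2.79% in decile 1 to 17.4% in decile 10.

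Most of the overlap lay inside UTP6 peaks. Of the co-bound sites, 194 of 2713 (7.15%, 6.24 to 8.18%) had no UTP6 peak, against 2847 of 7639 PSPC1-only sites (37.3%, 36.2 to 38.4%). Put the other way, hnRNPU was present at 34.5% of the 7311 PSPC1 sites with UTP6 and at 6.38% of the 3041 without, a difference of 28.1 points (26.7 to 29.4). The same held from the hnRNPU side: 34.3% of hnRNPU peaks with UTP6 lay at a PSPC1 site (2511 of 7320), and 8.82% of those without (261 of 2959). Those 261 peaks scored lower, with a median percentile in the hnRNPU list of 41.9, against 61.1 for all hnRNPU peaks at PSPC1 sites. Among hnRNPU-only peaks the median percentile was 28.9 without UTP6 and 46.1 in all. Counted in base pairs, 0.514 Mb of the 3.12 Mb shared by PSPC1 and hnRNPU (16.5%) lay outside UTP6 peaks. This is more than the share of sites because a UTP6 peak somewhere in a site need not cover the shared stretch.

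The gap between sites with and without UTP6 was present at every PSPC1 rank. It was 29.2% against 4.05% in the lowest rank quartile, 32.5% against 4.46% and 38.0% against 6.90% in the middle quartiles, and 36.8% against 13.4% in the highest. Among sites without UTP6 the hnRNPU share thus climbed with rank, to 17.4% in the tenth decile (37 of 213). Among sites with UTP6 it stayed between 27.7% and 39.8% in all deciles. The score rank of the UTP6 peak went with hnRNPU more steeply: 15.8%, 24.6%, 38.0% and 59.5% of UTP6-positive sites were co-bound from the lowest to the highest quartile of UTP6 score.

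The remainder outside UTP6 rests on the length of the UTP6 list. UTP6 had 40217 peaks, the longest of the lists, and 70.6% of all PSPC1 sites held one. With only the higher scoring 50% of UTP6 peaks (20108), 21.5% of the co-bound sites were free of UTP6. With 10279 peaks, as many as hnRNPU has, 42.1% were free, and with 6670 peaks 56.03%. The PSPC1-only sites had the larger UTP6-free share at every length, at 62.5%, 81.5% and 88.7% in the same order. With 6670 peaks from every list, PSPC1 and hnRNPU included, the remainder was 54.8%, and the difference in hnRNPU share between sites with and without UTP6 was 35.3 points. The remainder was 13.3% with the reciprocal overlap, where the difference was 17.5 points, and 16.0% with windows of 500 bp. Both settings applied the same rule to UTP6. A site counted as free of UTP6 there could still share base pairs with a UTP6 peak, so these values are not overlap outside UTP6 peaks. Shortening the UTP6 list alone was tried after seeing the data.

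PSPC1 sites were also richer in hnRNPU than other places with UTP6. An hnRNPU peak met 18.1% of all UTP6 peaks, 32.5% of the 7680 UTP6 peaks at PSPC1 sites and 14.7% of the 32537 elsewhere. UTP6 peaks at PSPC1 sites were wider (median 1440 against 926 bp) and ranked higher (median percentile 65.7 against 46.4). Within quartiles of UTP6 score the shares at and away from PSPC1 sites were 12.6% and 3.70%, 16.2% and 6.27%, 27.1% and 15.3%, and 52.8% and 38.0%, from the lowest to the highest. The gap thus held at each UTP6 rank, while the part of UTP6 peak width in it was not tested.

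The 194 co-bound sites outside UTP6 had a nearby UTP6 peak about as often as other UTP6-free sites: 18 (9.28%, 5.95 to 14.2%) had a UTP6 peak within 1 kb, against 8.82% of UTP6-free PSPC1-only sites. Their median width was 2460 bp against 2382 bp for co-bound sites with UTP6 and 2073 bp for UTP6-free PSPC1-only sites. The median rank percentile of the 194 was 74.2, against 58.2 for UTP6-free PSPC1-only sites. A peak of overexpressed PSPC1 was present at 92 of the 194 (47.4%, 40.5 to 54.4%), and at 26.2% of UTP6-free PSPC1-only sites. The part of rank and width in this difference was not tested. Of the co-bound sites, 84 (3.10%) met none of the 6 other lists, whereas 1976 PSPC1-only sites (25.9%) met none. Few PSPC1 sites with any of the other proteins lay outside UTP6. The UTP6-free share was 7.15% for sites with hnRNPU, 7.02% with SAFB and 6.16% with SAFB2, whose intervals overlap. It was lower for the other ribosome biogenesis factors, at 2.85% with UTP3 and 1.58% with CIRH1A, and higher for overexpressed PSPC1, at 13.2%.

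Most hnRNPU midpoints fell in the central part of the PSPC1 sites. The hnRNPU midpoint fell in the central 50% of the site at 2342 of 2713 co-bound sites (86.3%, 85.0 to 87.6%), and in the central 10% at 667 (24.6%). The median distance between the midpoints was 261.5 bp. Neither side was favoured, with 51.1% of hnRNPU midpoints to the left of the centre. At 2260 sites (83.3%) the hnRNPU peak lay wholly inside the PSPC1 site, at 413 it crossed an edge and at 40 it covered the site. The hnRNPU peak covered a median of 43.1% of the site. A peak that lies inside a site and covers much of it must have its midpoint near the centre. Peak and site widths therefore set part of the central share, and the share under random placement was not computed.

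A high central share was common to most lists and was not particular to hnRNPU. Peaks of the lists covered unlike parts of their sites, with medians of 18.7% for overexpressed PSPC1 and 60.1% for UTP6. The central shares are therefore not on an equal footing. The central share was 84.9% for UTP6, 84.0% for overexpressed PSPC1, 86.5% for UTP3 and 85.1% for CIRH1A. It was lower for SAFB (57.0%) and SAFB2 (67.6%), whose peaks crossed an edge at 52.4% and 41.4% of their sites. Their peaks there had median widths of 1836.5 and 1391 bp, against 1459 bp for UTP6 and 1059 bp for hnRNPU. SAFB and SAFB2 were prepared by the protocol used for hnRNPU. The order of the lists changed with the width of the site. In the narrowest quartile of sites hnRNPU was less often central, with 85.1% (82.0 to 87.8%), than UTP6, with 90.1% (88.5 to 91.5%), and overexpressed PSPC1 had 88.1% (86.2 to 89.8%). In the next quartile the shares were 87.6%, 90.1% and 88.5%, and in the one after 90.2%, 86.8% and 86.1%. In the widest quartile the central share was 81.8% for hnRNPU (78.7 to 84.5%), 74.2% for UTP6 (72.3 to 76.1%) and 76.3% for overexpressed PSPC1 (74.3 to 78.1%). The median distance from the centre was there 593, 678 and 729 bp. These lists do not sit at the same sites, so the shares compare different sets of sites. Against single knock-in libraries, whose peaks are narrower than the merged sites, the central share of hnRNPU was 78.7 to 78.8%.

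Midpoint distances were also measured within sites that held hnRNPU, UTP6 and overexpressed PSPC1. These peaks had to meet the same site, so peak and site widths set part of the distances. Distances under random placement were not computed, so the values do not show that the peaks lie closer than their widths impose. At the 2166 sites with hnRNPU, UTP6 and overexpressed PSPC1, the median distance of the hnRNPU midpoint was 206.5 bp to that of UTP6, 240 bp to that of overexpressed PSPC1 and 259.75 bp to the centre of the site. For comparison, UTP6 and overexpressed PSPC1 lay 190.25 bp apart. The interquartile range of the first distance, 88.5 to 395.5 bp, spans the other medians. hnRNPU was less centred at co-bound sites without UTP6, with 76.8% in the central 50% (70.4 to 82.2%) against 87.1% with UTP6 (85.7 to 88.3%). The upper quartile of site width was 4307 bp without UTP6 and 3257 bp with it. The part of site width in this difference was not tested.

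**Figure D3:**
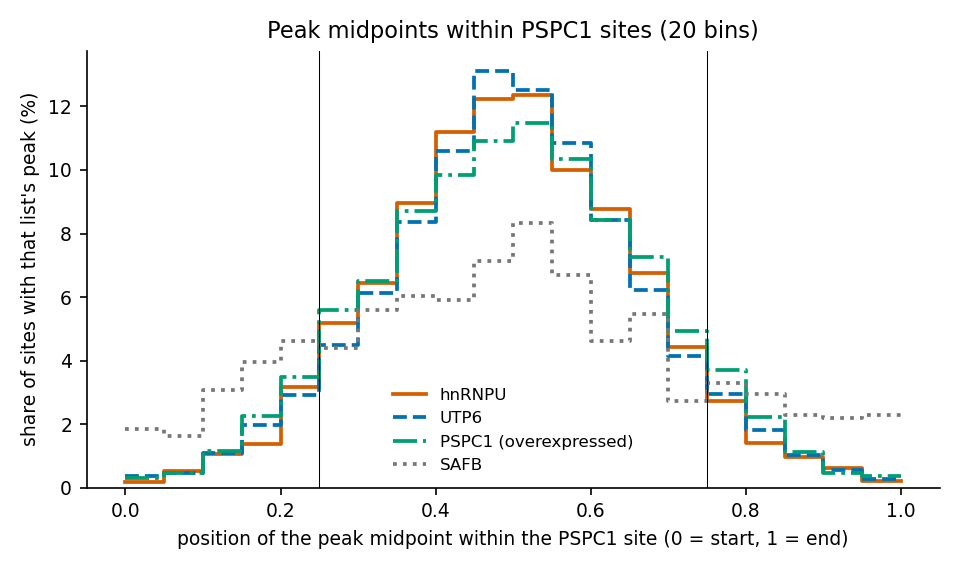
Distribution of peak midpoints of hnRNPU, UTP6, overexpressed PSPC1 and SAFB along the PSPC1 site, from its start (0) to its end (1), as a percent of the sites with a peak of that list; thin vertical lines enclose the central 50%. hnRNPU has 86.3% of its midpoints between the lines, UTP6 84.9%, overexpressed PSPC1 84.0% and SAFB 57.0%.

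Chromosomes differed in the share of PSPC1 sites with hnRNPU. Over chromosomes 2 to 19 the median was 26.4%. Chromosome 12 was highest at 43.2% (150 of 347, 38.1 to 48.5%), then chromosomes 6 at 35.2% and 3 at 34.5%, and chromosome 8 was lowest at 19.3% (122 of 632, 16.4 to 22.6%). Chromosome 12 exceeded the other autosomes without chromosome 1 by 16.5 points (11.3 to 21.8). Its surplus was spread along the chromosome: all 6 bins of 20 Mb with at least 20 sites were above the share of all sites, with a range of 34.8 to 62.5%. On chromosome 8, 0 of 7 such bins were above it.

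The density of sites varied along with these shares, and its part in them was not tested. Chromosomes 12 and 6 had the fewest PSPC1 sites per hnRNPU peak of chromosomes 2 to 19, 0.538 and 0.541, and chromosome 8 the most, 1.30. Seen from the hnRNPU list, chromosome 12 was not high: 23.7% of its hnRNPU peaks lay at PSPC1 sites, near the median of 25.9%, and chromosome 6 was the lowest at 19.6%. Chromosome 12 was not high in UTP6, which 72.05% of its sites held against a median of 73.1%. Among sites with UTP6, 54.0% on chromosome 12 were co-bound against a median of 33.9%. hnRNPU also met UTP6 peaks away from PSPC1 sites most often on chromosome 12 among the autosomes, at 23.7% against a median of 14.7%.

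Chromosome 1 had the highest share of hnRNPU peaks at PSPC1 sites, while its share of co-bound sites lay inside the range of chromosomes 2 to 19. It held 18.1% of all PSPC1 sites (1875) but 8.19% of hnRNPU peaks (842), so there were 2.23 sites per hnRNPU peak. Of its sites 21.7% were co-bound, against 27.4% on the other autosomes, a difference of -5.79 points (-7.84 to -3.65). Of its hnRNPU peaks 48.6% lay at PSPC1 sites, against 25.6% elsewhere on autosomes. Its UTP6 peaks gave 34.9% against 17.9%. The deficit among sites was -11.8 points in the lowest rank quartile and -10.1 points in the next. It was -3.24 points (-7.54 to 1.34) in the one after, and the highest quartile had a surplus of 7.45 points (2.21 to 12.9). With the 6670 highest scoring peaks per list it turned to 4.69 points, and with a score minimum of 50 it was -1.44 points (-4.29 to 1.52). With the reciprocal overlap it was -2.86 points, and against single knock-in libraries -9.15 to -7.90 points. On the X chromosome 29 of 136 sites (21.3%, 15.3 to 28.9%) were co-bound, and 10.6% of hnRNPU peaks lay at a site.

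**Figure D4:**
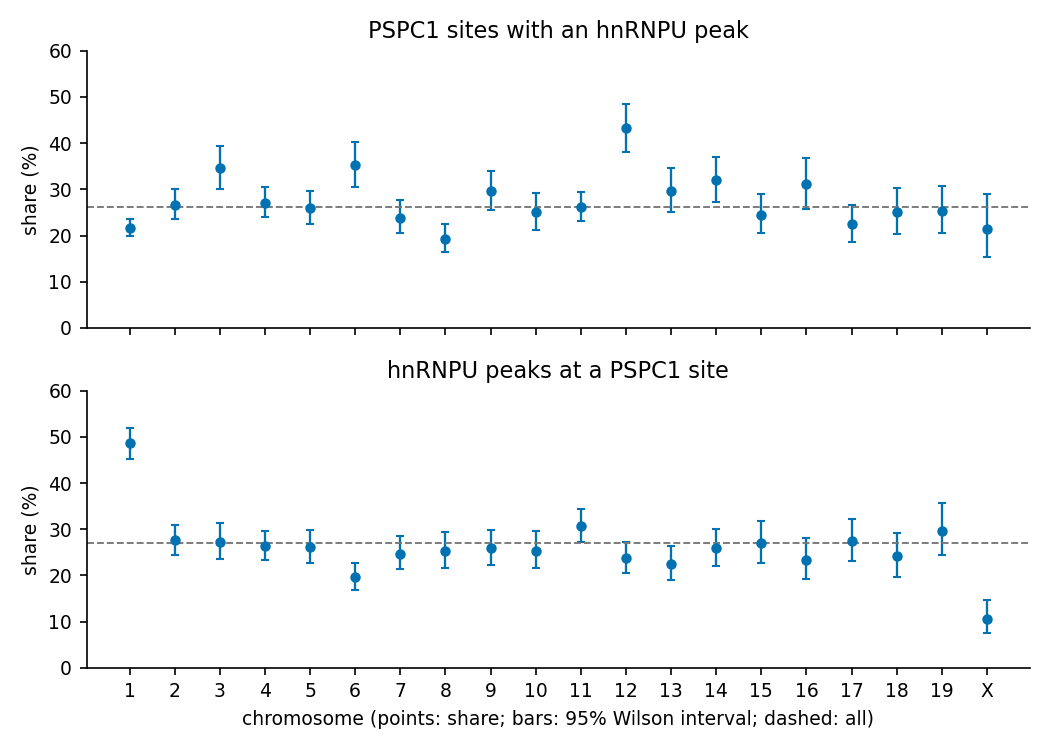
Share of PSPC1 sites with an hnRNPU peak (top) and of hnRNPU peaks at a PSPC1 site (bottom), in percent, for each chromosome; bars are 95% Wilson intervals and dashed lines the shares over all regions, 26.2% and 27%. Chromosome 12 is the highest in the top panel at 43.2%, and chromosome 1 the highest in the bottom panel at 48.6%, where the X is the lowest at 10.6%.

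Co-bound sites held more peaks of each of the 6 other lists. Overexpressed PSPC1 was present at 83.2% of co-bound and 53.3% of PSPC1-only sites. UTP3, a further processome factor, was present at 65.3% and 26.4%, and CIRH1A, a nucleolar protein of the same particle, at 49.1% and 17.3%. SAFB and SAFB2, scaffold attachment factors that bind RNA, were present at 16.4% and 6.10% and at 11.5% and 4.19%. Among sites with UTP6 the order was the same for the other 5 lists, for example 69.4% and 40.2% for UTP3. Among sites without UTP6 it was clear for overexpressed PSPC1, UTP3 (11.9% and 2.99%) and CIRH1A (6.70% and 1.02%). For SAFB (3.09% and 2.04%) and SAFB2 (2.06% and 1.23%) the intervals overlapped there. The share of sites with hnRNPU was 4.08% where none of the 6 lists was present, then 11.2%, 22.4%, 38.3%, 49.7% and 61.4% with 1 to 5, and 79.5% (116 of 146) with all 6.

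From the hnRNPU list the picture differed for SAFB. Its peaks met 15.5% of hnRNPU peaks at PSPC1 sites (14.2 to 16.9%) and 18.3% of hnRNPU-only peaks (17.4 to 19.2%), the opposite order. For SAFB2 the counts were 305 of 2772 and 910 of 7507, and the intervals of these shares overlap. The other 4 lists were more frequent at PSPC1 sites, UTP6 with 90.6% against 64.1% and overexpressed PSPC1 with 77.7% against 42.4%. The share of hnRNPU peaks at a PSPC1 site was 5.78% with none of the 6 lists, 23.0% with 1, 38.6% with 4 and 33.2% with all 6. It did not climb further past 4 lists.

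**Figure D5:**
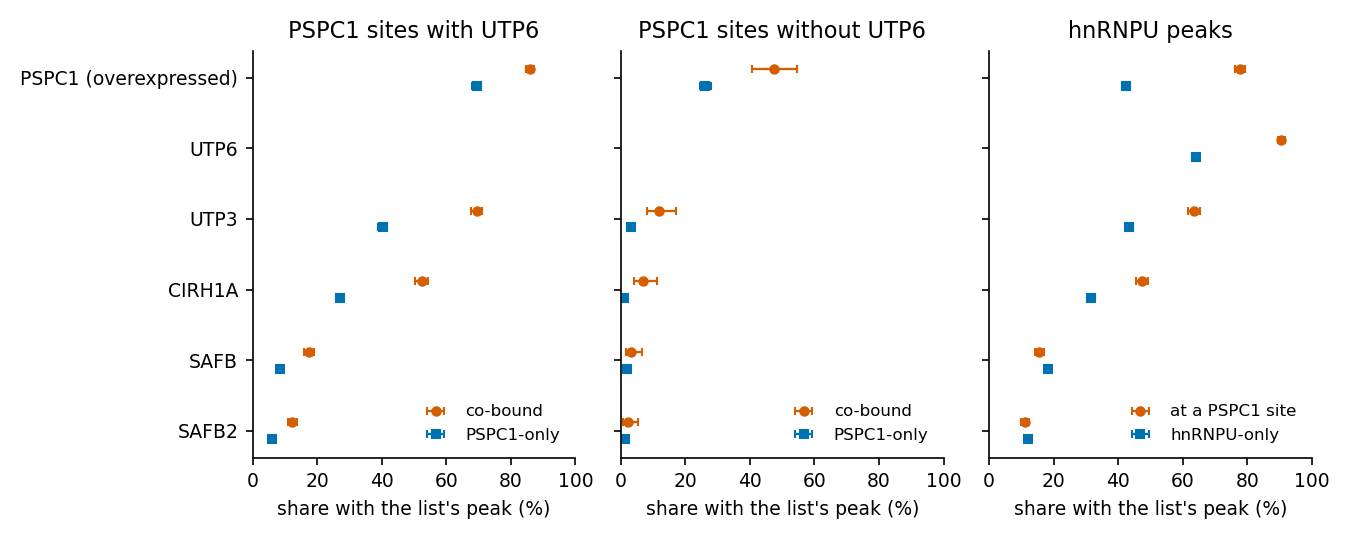
Share of regions with a peak of each other list, in percent with 95% Wilson intervals, for co-bound and PSPC1-only sites with UTP6 (left) and without UTP6 (middle), and for hnRNPU peaks at PSPC1 sites and hnRNPU-only peaks (right). UTP6 is not drawn in the first 2 panels, which are split by it. SAFB is the list with the clearest opposite order in the right panel, at 15.5% against 18.3%.

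The regions with the best ranks show these patterns singly (mm9 coordinates, counted from 1; no annotation of that build was used, so no gene is named). The best co-bound site was chr17:39979445-39986238, with scores of 2481 and 3100 in the knock-in libraries and 1347 for hnRNPU, and it met all 6 other lists. The hnRNPU midpoint lay 36.5 bp from its centre. The next 4 were chr13:74665556-74668712, chr11:82741915-82747893, chr17:13742003-13746467 and chr13:78302021-78303836. All 4 held UTP6, UTP3 and overexpressed PSPC1, and the first 3 of them also CIRH1A. In these 4 the hnRNPU midpoint lay 37.5 to 571.5 bp from the centre.

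Among the best co-bound sites without UTP6, chr12:25364820-25367180 had knock-in scores of 816.8 and 450.2 and met overexpressed PSPC1 alone. Its hnRNPU midpoint lay 9.5 bp from the centre. The site chrX:100649963-100653064, with scores of 488.9, 452.3 and, for hnRNPU, 138, met none of the other lists. The remaining 3, chr12:118826405-118827590, chr1:9863840-9865262 and chr1:24740505-24741589, all held UTP3 and CIRH1A. These top regions are not typical of the 194 co-bound sites without UTP6, of which 23 (11.9%) held UTP3 and 13 (6.70%) CIRH1A.

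The 5 best PSPC1-only sites reached scores of 3100 or more in both knock-in libraries and were wide, from 4936 to 13566 bp. The score of exactly 3100 recurred: each of the 5 had it in at least 1 library, and the co-bound site chr11:82741915-82747893 had it in both. The order at the top thus rests partly on tied scores and on small excesses over 3100, up to 3230. The best, chr7:56886958-56896677, held UTP6 alone of the other lists. Next were chr8:87316277-87329842, chr13:72772650-72778765 and chr1:42767440-42772375, with UTP6 and overexpressed PSPC1 (the first and the last of these also with UTP3), and chr18:81175902-81187530, with overexpressed PSPC1 alone. A top score in both libraries thus did not entail an hnRNPU peak.

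The 5 best hnRNPU-only peaks all met each of the 6 other lists, and 3 of the 5 met a PSPC1 peak in a single knock-in library. They include chr9:35112694-35113291, chr2:98506154-98507812 and chr12:3109618-3110239, with hnRNPU scores of 3100, 3079 and 2922. The other 2 lie on unplaced sequence. Background common to all libraries was not tested at these regions or at the best co-bound site, as no list from untagged cells was used. Leaving out regions that meet all 6 other lists changed no share or difference by more than its interval: 25.4% of sites were then co-bound and 7.44% of those were free of UTP6.

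A few co-bound sites were extreme in width and were picked after their values were seen. The widest, chr11:96140209-96219117 (78909 bp), held an hnRNPU peak 27701 bp from its centre. The next, chr15:102777123-102852675 (75553 bp) and chr6:52146253-52206365 (60113 bp), were co-bound too. Their hnRNPU peaks ranked in the middle of that list, at percentiles of 40.1, 58.4 and 61.8. The only site with 3 hnRNPU peaks was chr12:74138081-74156451. No PSPC1-only site was wider than 35479 bp.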

How the data were processed

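Each peak list gives a chromosome, start, end, peak name and score for 1 library. The score is as the authors deposited it, in a unit that no source states. The peak names carry the name MACS; its version, threshold and control are not given in the sources used here. The submitters' processing notes name mm9, Bowtie2, CASAVA and TopHat, without role or version. The lowest deposited score was 30 in the knock-in lists and about 50 in the others. Depth is unknown.

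Overlap was at least 1 bp. Shares carry Wilson and differences Newcombe 95% intervals. Groups were taken from sample titles. No p-value was computed across peaks. Regions named are the 5 with the best mean rank of each kind. The overlap code was tested on simulated data. Members, lists and comparisons were chosen with earlier results of these data known. Planned gene counts were not run, because no annotation of the build was used. Alternatives were overlap, windows, score minimum, equal list lengths, chromosome 1, left-out libraries, site definition and UTP6 distance. The tools were matplotlib 3.10.9, scipy 1.17.1, pandas 2.3.3 and numpy 2.4.6 under Python 3.11.15.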

Additional observations from a re-analysis of the deposited data

How the results depend on the processing

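Of 79 values recomputed under 16 alternative settings, 26 moved by less than their error, 47 moved by more and 6 changed direction. The cause was not tested, except that shorter lists and stricter overlaps leave fewer regions. The reciprocal overlap also selects narrow sites, so its width ratio and its difference between score quartiles carry no weight. The reciprocal overlap and the windows were applied to UTP6 too, so sites free of UTP6 under them could still meet a UTP6 peak. With a reciprocal overlap of 50%, 10.2% of PSPC1 sites were co-bound, 10.3% of hnRNPU peaks lay at sites, the width ratio was 0.856, the difference between score quartiles -4.29 points, the share of co-bound sites free of UTP6 13.3%, the UTP6 difference 17.5 points and the chromosome 1 difference -2.86 points. With windows of 500 bp the first 2 shares were 19.8% and 20.0%, the score difference 4.68 points, the UTP6-free share 16.0% and the UTP6 difference 25.9 points. With a score minimum of 50 the shares were 29.6% and 19.4%, the width ratio 0.975, the score difference 8.95 points, the central share 88.4% and the chromosome 1 difference -1.44 points. With 6670 peaks per list the shares were 24.5% and 16.7%, the width ratio 0.924, the score difference -1.41 points, the central share 91.1%, the UTP6-free share 54.8%, the UTP6 difference 35.3 points and the chromosome 1 difference 4.69 points.

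Without chromosome 1 the shares were 27.2% and 25.0% and the score difference 9.68 points. Leaving out either knock-in library, so that the peaks of the other stood for sites, gave 17.9 to 18.2% co-bound, 33.0 to 40.2% of hnRNPU peaks at sites, a width ratio of 1.27 to 1.31, a score difference of 20.3 to 20.4 points, a central share of 78.7 to 78.8%, a UTP6-free share of 8.01 to 9.49%, a UTP6 difference of 27.1 to 28.8 points and a chromosome 1 difference of -9.15 to -7.90 points. With the intersection of both libraries as the site, 23.4% were co-bound, the width ratio was 1.23, the central share 76.9% and the UTP6-free share 8.36%. Where the hnRNPU peak itself had to be free of UTP6, 9.25% of co-bound sites remained. The UTP6 difference kept its direction in each setting run. With the UTP6 list alone cut to 20108, 10279 and 6670 peaks, added after seeing the data, the UTP6-free share was 21.5%, 42.1% and 56.03% and the UTP6 difference 31.8, 37.1 and 39.8 points. Leaving out regions that meet all 6 other lists, also added, moved each of the 8 values by less than its error. No paired analysis was possible because only PSPC1 has replicate numbers past 1. The peak counts depend on read depths and control libraries that are unknown here, and hnRNPU and UTP6 have 1 library each.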
